A study of Mus musculus with 81 samples.

Results

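Offspring of dams fed a choline-supplemented diet (ChP, 5.0 g/kg choline chloride) were compared with offspring of dams fed a choline-normal diet (ChN, 1.1 g/kg) in disomic (2N) CA1 pyramidal neurons (CA1 PNs). The members were chosen by the labels alone: all libraries labelled CA1, 2N and either diet, which gave 6 ChN and 7 ChP libraries, or 13 of the 81 libraries of the series. Each library held neurons of 1 male mouse at 6 months of age (MO), taken by laser capture microdissection from Nissl-stained rostral hippocampus, and RNA-seq counted whole-transcript reads per gene. The 2N mice were the disomic offspring of Ts65Dn dams, whose mates were F1 males of a cross between C57Bl/6J Eicher and C3H/HeSnJ, so that by their label they carried no extra chromosome, and their strain background was mixed. The dams' diets ran from conception to weaning, and all offspring ate the control diet from then on, so the 2 groups share the adult diet. The rest of the series holds trisomic (Ts) mice on both diets and the CA3 PNs and dentate granule cells (DGCs) of the same mice.

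Choline is taken up by cells through transporters of the Slc44 family. Choline kinase and the enzymes after it build it into phosphatidylcholine, the main phospholipid of membranes, and cholinergic neurons use it for acetylcholine. In liver and kidney it is oxidized to betaine, a methyl donor for the methionine cycle, which in turn supplies the methyl groups of DNA and histone methylation. CA1 PNs are glutamatergic neurons that receive cholinergic input from the medial septum, and supplementation of the dam's diet has been studied for its lasting effects on hippocampal function in offspring. The comparison asks whether such a difference is seen in CA1 PN transcripts of adult 2N mice.

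The 13 libraries held 648202 to 1486710 expected counts (RSEM's estimate of reads per gene) and 14212 to 16112 genes with a count. At these totals 1 CPM (a count scaled to the library's total) stands for 0.65 to 1.5 counts. Levels below are CPM scaled with TMM. The ranges of totals, of the mitochondrial share (4.74 to 9.9% in ChN and 5.52 to 10.1% in ChP) and of the protein-coding share (81.2 to 86.4% and 81.4 to 87.5%) overlapped between diets. Excitatory neuron markers (Camk2a, Slc17a7 and 2 others) averaged 9.26 to 9.68 on the log2 CPM scale in ChN and 9.25 to 9.83 in ChP, against 3.99 to 5.05 and 4.4 to 5.24 for inhibitory neuron markers. All 4 hemoglobin genes looked for had at most 2 counts in all libraries together. Of 4 choroid plexus markers, Ttr, Folr1 and Clic6 had no count in any library. The remaining marker of that list, Kl, ran from 4.59 to 79.44 CPM in ChN and from 13.35 to 69.75 CPM in ChP.

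The libraries were not alike in hippocampal field. Markers of CA2, the small field next to CA1 (Rgs14, Amigo2, Pcp4, Necab2 and Cacng5 passed the filter), averaged 2.27 to 3.86 log2 CPM in 8 libraries. In the other 5 they averaged 6.62 to 8.32. These CA2-rich libraries were those of ChN mice 17-154 and 17-21 and of ChP mice 15-334, 15-336 and 16-90. The CA1 marker list averaged 3.11 in mouse 17-21, 4.75 in mouse 15-336 and 6.78 in mouse 16-90, against 7.11 to 7.94 in the other 10 libraries. Both diets held CA2-rich libraries, and no CA2 marker and no CA1 marker had an unadjusted p under 0.05 between diets. In the library labelled 17-154, genes triplicated in Ts65Dn also went against the 2N label. The mean of 62 such genes of chromosome 16 was 5.63 log2 CPM there, against 4.97 to 5.2 in the other 5 ChN libraries, 5.01 to 5.24 in the 7 ChP libraries and 5.36 to 5.7 in the 14 Ts CA1 libraries. In the CA3 and DGC libraries of the same mouse that mean was 4.85 and 5.26, within the ranges of the other 2N ChN mice (4.75 to 4.97 and 5.16 to 5.29). Results are therefore given with and without mouse 17-154, and with and without the CA2-rich libraries.

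**Figure D1:**
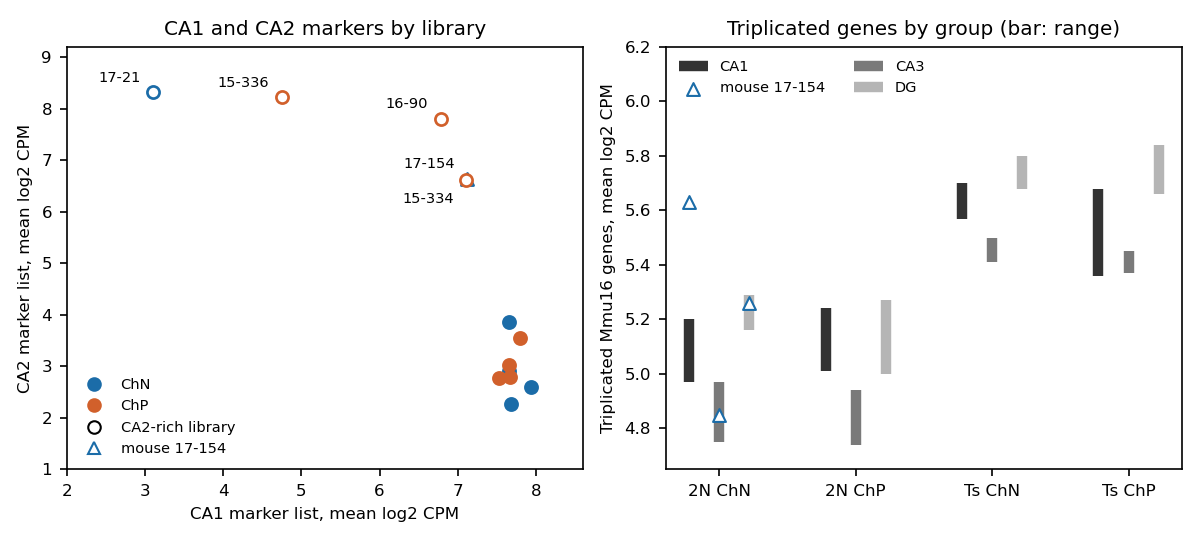
Left, mean log2 CPM of the CA2 marker list against that of the CA1 marker list in the 13 2N CA1 libraries, coloured by diet, with CA2-rich libraries open and mouse 17-154 as a triangle, nearly hidden by mouse 15-334. Right, range over libraries of the mean log2 CPM of 62 triplicated chromosome 16 genes in each population, genotype and diet without mouse 17-154, which is drawn as a triangle. The 5 CA2-rich libraries stand at 6.62 or more, and only the CA1 library of mouse 17-154 leaves the 2N ranges of its own group, at 5.63.

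Few genes differed between diets in 2N CA1 PNs. Of 12942 genes tested with edgeR's quasi-likelihood test, 290 were DEGs at the study's threshold of an unadjusted p under 0.05 (2.24% of the genes tested), 151 higher (1.17%) and 139 lower (1.07%) in ChP. A threshold of 5% passes 647 of 12942 genes on average where no gene differs. No gene (0%) had a Benjamini-Hochberg adjusted p under 0.05 with edgeR, nor with DESeq2 (217 DEGs) or limma-voom (349 DEGs). Most DEGs differed by less than 2-fold: 206 of the 290 had an absolute log2 fold change (LFC) under 1. Scaled by library totals in place of TMM, 193 DEGs were higher and 96 lower, with the median LFC over all genes at 0.034 in place of 0.006, so that the balance of directions depended on the scaling. The standard error of the LFC had a median of 0.263, and the 95% interval lay within 1 log2 unit of 0 for 66.4% of the genes tested. In this comparison of all 13 libraries the adjusted p of every gene was 1, so the genes named below are the front of a ranking and not established changes.

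**Figure D2:**
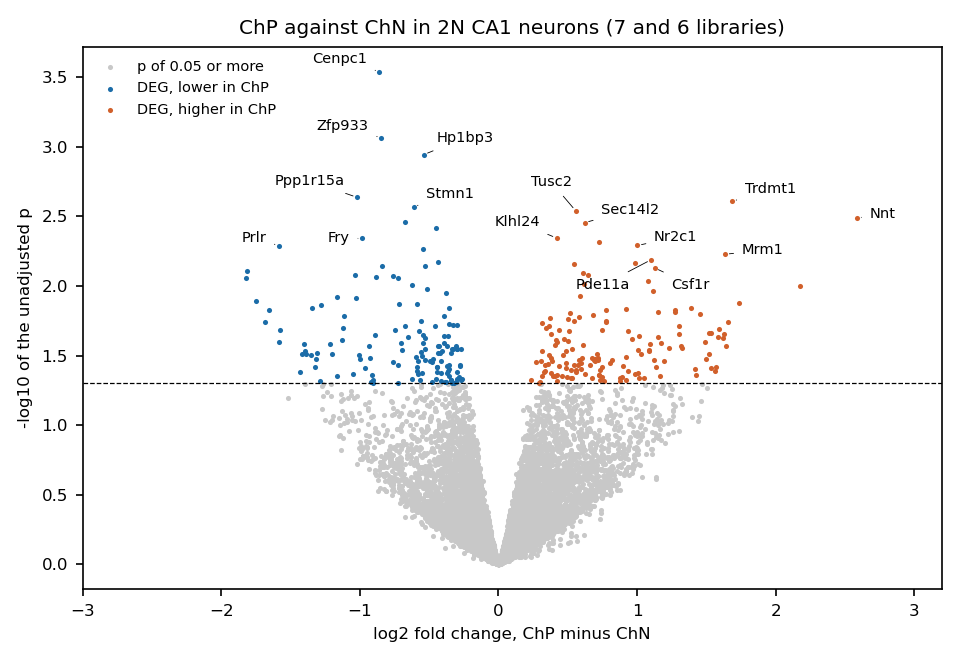
Unadjusted p on a −log10 scale against the log2 fold change (ChP minus ChN) of 12942 genes in 2N CA1 libraries, 6 ChN and 7 ChP. The dashed line marks the DEG threshold, the 151 genes above it to the right are higher and the 139 to the left lower in ChP, and Cenpc1 stands highest.

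Of the 12 genes with the smallest p that were lower in ChP, Cenpc1, Zfp933 and Hp1bp3 came first. Cenpc1, a centromere protein (chr5:86159875-86213890), had 31.4 CPM in the lowest, 39.1 in the median and 67.4 in the highest ChN library, and 17.8 CPM in the lowest and 31.1 CPM in the highest ChP library. The groups did not overlap, but the lowest ChN and the highest ChP library were close, and the ChN maximum came from mouse 15-147 alone. Its LFC was −0.86 (SE 0.20, 95% interval −1.27 to −0.45). Zfp933 (chr4:147907443-147932882) ran from 19.6 to 26.4 CPM in ChN and from 8.07 to 18.1 CPM in ChP, again with no overlap (LFC −0.85, SE 0.22). Hp1bp3, which binds heterochromatin protein 1 (chr4:137943536-137971994), was the more abundant of these, at 183 to 301 CPM in ChN (median 224) and 129 to 201 CPM in ChP (median 165). Its groups overlapped, with mouse 17-21 lowest in ChN and mice 15-334 and 16-273 highest in ChP. The LFC was −0.54 (SE 0.14).

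Fry, which encodes a large protein that binds microtubules (chr5:150042110-150421411), also separated the diets. ChN libraries had 641, 692, 835, 644, 823 and 816 CPM, and ChP libraries 386, 411, 377, 87.2, 519, 408 and 439 CPM. No ChP library reached the lowest ChN library, and mouse 15-334 stood alone far below the other ChP libraries. The mean was 742 ± 92.7 CPM (SD, n = 6) in ChN and 375 ± 136 CPM (SD, n = 7) in ChP, with an LFC of −0.98 (SE 0.29). Without mouse 15-334 the LFC was −0.81 (SE 0.12) and the adjusted p 0.0192, and Fry was then the only gene past the adjusted threshold.

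The other 8 genes of the lower 12 had varied roles. Ppp1r15a, the stress-induced subunit that directs a phosphatase to the translation factor eIF2α, ran from 11.5 to 20.9 CPM in ChN and from 4.45 to 13.6 CPM in ChP (LFC −1.02, SE 0.30). Stmn1, which destabilizes microtubules, ran from 37.4 to 48.1 CPM and from 16.0 to 38.6 CPM (LFC −0.61, SE 0.18). Pdcl, Evi5l, Kri1, Prpf6 and Rreb1 had LFCs of −0.68, −0.45, −0.54, −0.44 and −0.84. Evi5l is an activator of Rab GTPases' hydrolysis, Kri1 takes part in ribosome assembly, Prpf6 is part of the spliceosome and Rreb1 is a transcription factor. Prlr, the prolactin receptor, rested on few reads, 2 to 7 counts in ChN and 0 to 2 counts in ChP (LFC −1.58, SE 0.51). All 8 of these genes overlapped between diets.

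The 12 genes with the smallest p that were higher in ChP included Tusc2, Nnt and Mrm1. Tusc2, a small mitochondrial protein (chr9:107440429-107443910), ran from 22.2 to 37.5 CPM in ChN (median 27.7) and from 35.7 to 48.5 CPM in ChP (median 43.5), with only mouse 17-154 of the ChN group above the lowest ChP library (LFC 0.56, SE 0.17). Nnt, the mitochondrial transhydrogenase that makes NADPH (chr13:119470859-119566380), had 0 to 4.06 CPM in ChN. The 7 ChP mice had 0, 2.27, 8.90, 9.35, 18.2, 20.9 and 25.2 CPM in rising order. Its levels were thus spread over the ChP mice, and 2 of them lay within the ChN range (LFC 2.59, SE 0.75). The C57BL/6J strain is known to carry a deletion within Nnt that many other strains lack. Mrm1, a methyltransferase of mitochondrial ribosomal RNA, had 1 to 2 counts in ChN and 1 to 8 counts in ChP libraries (LFC 1.64, SE 0.54), and it missed the threshold without the CA2-rich libraries (LFC 1.11).

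Trdmt1, which methylates transfer RNA with the methyl donor of the methionine cycle (chr2:13513825-13549693), led the higher genes by p. It had 0 to 3 counts in each ChN library and 2 to 9 counts in each ChP library, or 0 to 2.30 CPM against 2.43 to 7.23 CPM, with no overlap on the CPM scale (LFC 1.69, SE 0.49). Both groups stood near the level of single reads. Sec14l2, a lipid-binding protein that carries tocopherol, ran from 19.3 to 34.6 CPM and from 33.2 to 54.9 CPM (LFC 0.62, SE 0.19). Klhl24, an adaptor of a ubiquitin ligase, ran from 70.2 to 109 CPM and from 104 to 135 CPM (LFC 0.42, SE 0.13). Rps27, a ribosomal protein, Nr2c1, an orphan nuclear receptor, Pde11a, a phosphodiesterase of cyclic nucleotides, Polr2i, a subunit of RNA polymerase II, and Tmem271rt had LFCs of 0.54 to 1.10, of which Polr2i (LFC 0.67) and Tmem271rt (LFC 0.45) missed the threshold without the CA2-rich libraries. Csf1r, the receptor that microglia need to survive, ran from 1.09 to 9.36 CPM in ChN and from 7.23 to 17.0 CPM in ChP (LFC 1.13, SE 0.38).

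**Figure D3:**
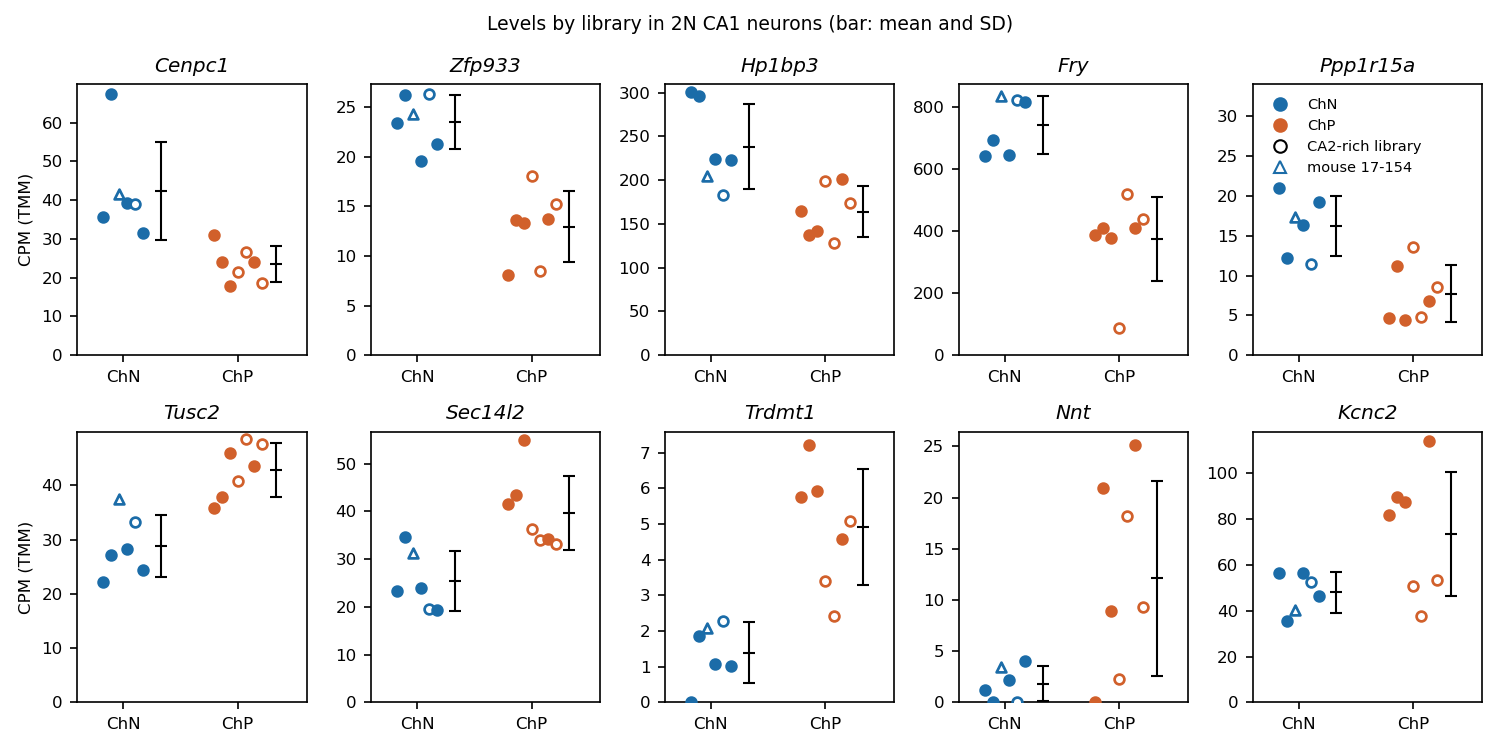
CPM (scaled with TMM) of 10 genes in each 2N CA1 library by diet, with the mean and SD of 6 ChN and 7 ChP libraries beside the points. CA2-rich libraries are open and mouse 17-154 is a triangle. Cenpc1, Zfp933 and Fry do not overlap between diets, Nnt is spread over ChP mice from 0 to 25.2 CPM, and the ChP levels of Kcnc2 are lower in the 3 CA2-rich libraries.

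Across all genes tested, 9 (0.0695%) had ChN and ChP ranges that did not overlap. Lower in ChP were Cenpc1, Zfp933 and Fry. Higher in ChP were Trdmt1, Rnf26 (LFC 0.61), Ftl1, the ferritin light chain (LFC 0.65), Ino80c (LFC 0.59), Nfkbid (LFC 1.73) and Sap130 (LFC 0.36).

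Genes of choline uptake, phospholipid synthesis and lipid turnover held no DEG. Of 16 tested genes of choline uptake and phospholipid synthesis, 0 were DEGs, where 2.24% of all genes tested were, so that a list of this size could be at the background with 0. Their median LFC was 0.08 beside 0.006 over all genes. It was −0.03 without mouse 17-154 and 0.002 without the CA2-rich libraries. The main uptake gene measured, Slc44a1, ran from 43.1 to 66.5 CPM in ChN and from 38.3 to 57.0 CPM in ChP (LFC −0.10, 95% interval −0.42 to 0.22). Chka, choline kinase, ran from 61.1 to 91.2 CPM and from 58.7 to 96.5 CPM (LFC 0.02, interval −0.28 to 0.31). Etnk1, ethanolamine kinase and the most abundant of the list, had an LFC of −0.03 (interval −0.24 to 0.19). For Pcyt1a and Pcyt1b, which catalyse the rate-limiting step to phosphatidylcholine, the LFCs were 0.13 and 0.24, with Pcyt1a at −0.26 without the CA2-rich libraries. All 16 intervals lay within 1 log2 unit of 0 in either direction, and 6 lay within 0.5. The remaining 6 genes of the list did not pass the filter. Among them, Slc5a7, the high-affinity choline transporter of cholinergic terminals, had 1 count over the 13 libraries, and Pemt had 10.

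The lists that follow choline into its products held 0 or 1 DEG each, beside the 2.24% of all genes tested. None of 20 tested genes of choline lipid turnover was a DEG (median LFC 0.03). Of 33 tested genes of betaine, one-carbon and methionine metabolism, 1 was a DEG (median LFC 0.03): Mtrr, which keeps methionine synthase active, ran from 8.03 to 14.6 CPM in ChN and from 7.28 to 27.4 CPM in ChP (LFC 0.60, SE 0.27). Its target Mtr had an LFC of −0.10 (interval −0.61 to 0.40). Mat2a, which makes S-adenosylmethionine, had an LFC of 0.03 (interval −0.28 to 0.34). The betaine-using enzyme Bhmt and Dmgdh had no count in any library. Of the betaine branch, Aldh7a1 (LFC 0.22, SE 0.30), Chdh (LFC −0.09, SE 0.69) and Sardh (LFC 0.23, SE 0.72) were tested, the latter both at under 2 CPM on average. Of 20 tested DNA methylation genes 0 were DEGs (median LFC −0.03): Dnmt3a had an LFC of −0.22 (interval −0.61 to 0.17), Dnmt1 of −0.15 and Tet2 of 0.01. Of 54 histone methyltransferases and demethylases 1 was a DEG: Kdm1a, which removes methyl groups from histone H3, ran from 58.8 to 80.5 CPM in ChN and from 42.7 to 70.6 CPM in ChP (LFC −0.31, SE 0.15).

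**Figure D4:**
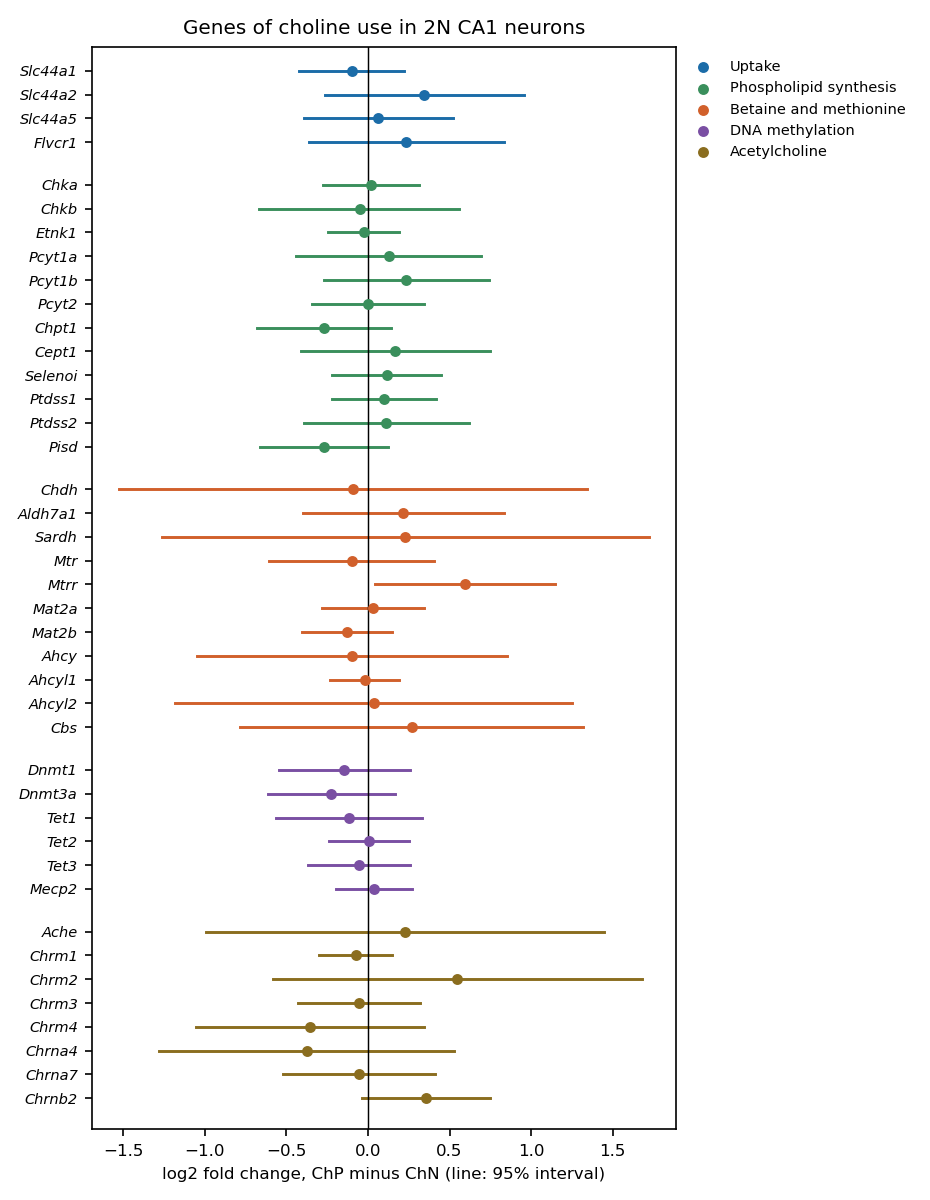
Log2 fold change (ChP minus ChN, points) with its 95% interval (lines) for 41 genes of choline uptake, phospholipid synthesis, betaine and methionine metabolism, DNA methylation and acetylcholine in 2N CA1 libraries. Of these genes only Mtrr has an interval that leaves out 0.

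Of 15 tested acetylcholine genes, 0 were DEGs (median LFC −0.04), beside 2.24% of all genes tested. Chrm1, the main muscarinic receptor of these neurons, ran from 352 to 479 CPM in ChN and from 345 to 456 CPM in ChP (LFC −0.08, interval −0.30 to 0.15). Chrna7 and Chrnb2, nicotinic receptor subunits, had LFCs of −0.06 (interval −0.52 to 0.41) and 0.36 (interval −0.04 to 0.75). Chat and Slc18a3, which mark cholinergic neurons, had no count in any library. Among 8 neurotrophin genes 0 were DEGs, and Ntrk2, the BDNF receptor, had an LFC of −0.07 (interval −0.27 to 0.12).

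Synaptic and channel lists held 0 or 1 DEG each, beside the 2.24% of all genes tested. There were 0 among 20 AMPA, 6 NMDA, 7 kainate and 5 metabotropic glutamate receptor genes, 14 GABA receptor genes, 29 postsynaptic density genes and 23 sodium and calcium channel genes, with list medians from −0.03 to 0.11. Gria1, an AMPA receptor subunit, had an LFC of −0.10 (interval −0.37 to 0.17) and Grin2b, an NMDA receptor subunit, one of 0.14 (interval −0.20 to 0.49). Of 47 vesicle release genes the DEG was Syn2, a synapsin that tethers vesicles, at 221 to 291 CPM in ChN and 261 to 374 CPM in ChP (LFC 0.27, SE 0.12). Of 21 potassium channel genes it was Kcnc2, a fast delayed rectifier, at 35.6 to 56.7 CPM and 37.6 to 114 CPM (LFC 0.62, SE 0.22).

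Immediate early genes were DEGs in 0 of 22 cases, beside 2.24% of all genes tested. Of their LFCs 18 of 22 were below 0, beside 48.7% over all genes, and their median was −0.23 beside 0.006. Arc ran from 145 to 500 CPM in ChN and from 155 to 271 CPM in ChP (LFC −0.46, interval −1.04 to 0.12), and Fos from 2.08 to 39.2 CPM and from 7.23 to 25.5 CPM (LFC −0.39, interval −1.45 to 0.68). The spread within ChN exceeded the difference between diets for both.

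Lists of metabolic, housekeeping and disease-related genes held 0 to 2 DEGs each, where 2.24% of all genes tested were DEGs. There was 1 DEG among 79 nuclear-encoded subunits of oxidative phosphorylation (Cox7a2, LFC 0.46), 1 among 83 ribosomal proteins (Rps27), 1 among 29 heat shock and unfolded protein response genes (Hsp90aa1, LFC −0.26), 1 among 33 cholesterol genes (Npc1, the lysosomal cholesterol exporter, LFC 0.42), and 0 among 36 genes of glycolysis and the TCA cycle, 32 early endosome genes and 7 mitochondrially encoded subunits. The other 6 mitochondrially encoded subunits were listed at 0 in all 13 libraries. Of 17 tested genes of App processing 2 were DEGs, both proteases that degrade amyloid-β and both higher in ChP. Mme, neprilysin, had 2 to 6 counts in ChN and 2 to 18 counts in ChP libraries (LFC 1.15, SE 0.44). The highest Mme counts were in CA2-rich ChP libraries, and without the CA2-rich libraries of both diets its LFC was 0.30 and it was no DEG. Ide ran from 14.2 to 39.0 CPM and from 21.8 to 48.5 CPM (LFC 0.58, SE 0.26). App itself had an LFC of −0.20 (interval −0.46 to 0.05). App is triplicated in Ts65Dn and stood at 3162 CPM in the library labelled 17-154, and without it the LFC was −0.07.

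Marker lists of other cell types were small, and are given beside the 2.24% of all genes that were DEGs and the 51.3% with an LFC above 0. All 3 tested microglia markers had positive LFCs (median 0.73, with Csf1r the DEG and Cx3cr1 at 0.70), as did 5 of 5 vascular markers (median 0.52, 0 DEGs) and 4 of 5 astrocyte markers (median 0.24). Gja1, the astrocyte connexin, was the DEG among the latter, at 20.8 to 33.3 CPM in ChN and 27.7 to 55.5 CPM in ChP (LFC 0.50, SE 0.19). Without the CA2-rich libraries neither was a DEG, with an LFC of 0.17 for Gja1 and 0.97 for Csf1r. The vascular median was 0.28 without mouse 17-154 and 0.28 without the CA2-rich libraries. All 6 inhibitory neuron markers also had positive LFCs (median 0.20, 0 DEGs). Their median was 0.07, with 1 DEG, without the CA2-rich libraries, and 0.32 without mouse 17-21. Of oligodendrocyte markers 3 of 4 had positive LFCs (median 0.17) and of their precursors' markers 4 of 6 (median 0.18), with 0 DEGs. These medians were 0.105 and 0.016 without mouse 17-154, and −0.11 and −0.29 without the CA2-rich libraries. The mean log2 CPM of the microglia list ran from 1.85 to 2.93 in ChN and from 2.27 to 3.26 in ChP, and that of the astrocyte list from 3.66 to 4.74 and from 4.21 to 4.76. Microglia markers Tmem119 and C1qa did not pass the filter, with 16 and 20 counts over 13 libraries. The part of such cells in the result for Csf1r and Gja1 was not tested, and in dissected tissue more cells of a type and more RNA per cell cannot be told apart.

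Leaving out the library labelled 17-154 gave 225 DEGs of 12439 genes (1.81%), 112 higher and 113 lower, with an adjusted p under 0.05 for 0 of them by edgeR. Of these 225, 153 were also among the 290. All 12 lower genes and 11 of the 12 higher genes kept an unadjusted p under 0.05. Cenpc1 then had an LFC of −0.86, Hp1bp3 of −0.58 and Fry of −0.95, and Tusc2 one of 0.66. Nnt no longer passed the filter on low values. The median LFC of the 62 chromosome 16 genes was −0.12 with that library and −0.01 without it. Their 1 DEG was Rwdd2b, higher in ChP, with an LFC of 0.75 with that library and 1.02 without it. Of 20 triplicated chromosome 17 genes 1 was a DEG over all libraries, Ezr, beside 2.24% of all genes tested. Syn2 (LFC 0.27 with and 0.25 without that library), Cox7a2 (0.46 and 0.42), Npc1 (0.42 and 0.44), Gja1 (0.50 and 0.41), Ezr (−0.58 and −0.47) and Hsp90aa1 (−0.26 and −0.16) lost the threshold with LFCs that moved little except that of Hsp90aa1, whereas Mtrr (LFC 0.66) and Kdm1a (LFC −0.34) kept it. Among immediate early genes 3 were then DEGs, all lower in ChP, with Arc at −0.59 and Egr2 at −1.77 (median of the list −0.37).

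The library that moved the counts most was that of mouse 17-21. Without it 554 of 12547 genes were DEGs (4.42%), 303 higher and 251 lower, with 0 past the adjusted threshold. Mtrr (LFC 0.51) and Kdm1a (LFC −0.28) were then no longer DEGs. Without both mice 17-154 and 17-21 there were 677 DEGs.

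Without the 5 CA2-rich libraries, which left 4 ChN and 4 ChP mice, 662 of the same 12942 genes were DEGs (5.12%) and 5 genes (0.0386%) had an adjusted p under 0.05. This comparison was chosen after the data were seen. Fry was lower in ChP (LFC −0.82, SE 0.10, adjusted p = 8.90e-07), as were Hp1bp3 (LFC −0.69, SE 0.13, adjusted p = 0.00543), the signal recognition particle RNA gene Rn7s6 (LFC −1.06, SE 0.14, adjusted p = 8.90e-07) and the non-coding gene 1110038B12Rik (LFC −1.11, SE 0.20, adjusted p = 0.00293). Kcnc2 was higher (LFC 0.95, SE 0.18, adjusted p = 0.00445). Over all 13 libraries Rn7s6 (LFC −0.52, SE 0.30) and 1110038B12Rik (LFC −0.48, SE 0.38) were no DEGs, nor were they with the CA2 covariate (LFC −0.38 and −0.48). Elsewhere both had the opposite sign. In Ts CA1 PNs, 2N CA3 PNs and 2N DGCs 1110038B12Rik had LFCs of 0.91, 0.695 and 0.21, and was a DEG in the former 2. Rn7s6 had 0.16, 0.09 and 0.48 there and was no DEG. Kcnc2 kept its sign, at 0.18, 0.51 and 0.21, and was a DEG in CA3 PNs alone of these. In these 8 libraries Fry had 641, 692, 644 and 816 CPM in ChN and 386, 411, 377 and 408 CPM in ChP. Kcnc2 had 56.7, 35.6, 56.6 and 46.7 CPM in ChN and 81.9, 89.9, 87.5 and 114 CPM in ChP. Rn7s6 had 235, 218, 199 and 181 CPM in ChN and 100, 89.1, 89.0 and 121 CPM in ChP, and reads of such RNAs match many near-identical copies in the genome. None of these 3 genes overlapped between diets in these libraries, but they were named because they passed the adjusted threshold there. The lack of overlap is thus not separate evidence. The share of all genes without overlap was not counted for these libraries. DESeq2 and limma-voom both called Fry, Rn7s6, 1110038B12Rik and Kcnc2 in the same libraries, and Hp1bp3 was called by DESeq2 (adjusted p = 0.0232) and missed by limma-voom (adjusted p = 0.0973) and by edgeR without robust estimation (adjusted p = 0.0512). Rmrp, another non-coding RNA gene, was called by DESeq2, limma-voom and edgeR without robust estimation and not by robust edgeR.

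In the CA2-rich libraries Kcnc2 did not follow this. ChP mice 15-334, 15-336 and 16-90 had 51.0, 37.6 and 53.6 CPM, beside 40.3 and 52.8 CPM in ChN mice 17-154 and 17-21 (LFC 0.03). Rn7s6 overlapped there, at 170, 143 and 87.6 CPM in ChP and 91.0 and 58.5 CPM in ChN (LFC 0.80), the opposite sign. Hp1bp3 (LFC −0.23) and 1110038B12Rik (LFC 0.42) were no DEGs there. Fry did not overlap there, at 87.2, 519 and 439 CPM in ChP against 835 and 823 CPM in ChN. So few libraries separate easily, and the 835 CPM came from the library labelled 17-154. The share of all genes without overlap was not counted there. Small nucleolar RNAs, which guide the modification of ribosomal RNA, were counted as a class after values were seen. They were DEGs in 3 of 95 cases over all libraries, all lower in ChP. Without the CA2-rich libraries they were DEGs in 15 of 95, again all lower. Of the 12942 genes tested, 139 and 359 were lower in these 2 comparisons. The median LFC of the 95 was 0.01 over all libraries and −0.48 without the CA2-rich ones. Without mouse 17-154 alone, 85 were tested, with a median of −0.17, and 4 were lower DEGs, where 113 of 12439 genes were lower. Snora68 had LFCs of −1.04 over all libraries, −1.55 without the CA2-rich ones and −1.21 without mouse 17-154. In Ts CA1 PNs, 2N CA3 PNs and 2N DGCs its sign was the opposite, at 1.19, 0.80 and 0.335, and it was a DEG in the former 2. Of the 22 immediate early genes 5 were lower and 1 higher without the CA2-rich libraries, beside 5.12% of all genes as DEGs, with Fos at −1.35 (adjusted p = 0.164), Nr4a3 at −0.66 and Dusp6 at −0.41. In the CA2-rich libraries Fos had an LFC of 1.73, and with the CA2 covariate over all libraries the list held 0 DEGs (median −0.10). Choline uptake and phospholipid synthesis still held 0 DEGs of 16.

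The diets of the mice and their identifiers were not independent. ChN mice carried the leading numbers 15 and 17, and ChP mice 14, 15 and 16. The labels do not say what the number stands for. Among mice numbered 15 (2 ChN and 4 ChP), 362 of 12942 genes were DEGs (2.8%), 218 higher and 144 lower, and 43 of the 290 DEGs were among them. Of the 24 leading genes, which were chosen on data that include these mice, 6 were DEGs. Hp1bp3 had an LFC of −0.98 (SE 0.21), Cenpc1 of −1.21, Zfp933 of −0.89 and Tusc2 of 0.78, which with Nnt and Pde11a were the 6, while Fry (LFC −0.94, SE 0.65) and Trdmt1 (LFC 2.07, SE 1.02) were among the 18 that were not. The number and the diet cannot be told apart for the remaining mice.

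The diet effect in 2N CA1 PNs was next compared with that in Ts CA1 PNs, where ChP against ChN (9 and 5 libraries) gave 457 DEGs (3.26%) and 0 past the adjusted threshold. The difference between the 2 genotypes was tested in 1 fit of all 4 CA1 groups. Of 16225 genes 523 (3.22%) had an unadjusted p under 0.05 for that difference and 0 an adjusted one, by edgeR or by limma-voom (582 unadjusted). Cenpc1 had an LFC of −0.15 (SE 0.15) in Ts CA1, Hp1bp3 of −0.10 (SE 0.22), Fry of −0.30 (SE 0.38), Trdmt1 of 0.00 (SE 0.39) and Tusc2 of 0.02 (SE 0.15). The difference from 2N passed an unadjusted threshold of 0.05 for Cenpc1, Trdmt1 and Tusc2 and missed it for Hp1bp3 and Fry, and the adjusted p was 1 for all 5. Ppp1r15a had an LFC of 0.45 in Ts and −1.02 in 2N (difference −1.46, SE 0.41, adjusted p = 1). Nnt had an LFC of −1.20 (SE 0.93) in Ts, and its difference from 2N (3.82, SE 1.33) passed the unadjusted threshold alone. It ran from 0 to 37.4 CPM in Ts ChN mice and from 0 to 14.9 CPM in Ts ChP mice, so high levels were not confined to ChP. Fry spread widely within Ts ChP mice, from 104 to 843 CPM, and within Ts ChN mice, from 413 to 799 CPM.

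In CA3 PNs and DGCs of the same 2N mice, the diet comparison gave 532 DEGs (4.08%) and 728 DEGs (5.52%), with an adjusted p under 0.05 for 1 gene, Medag, in CA3 PNs and for 0 in DGCs. Its difference from the effect in CA1 had an unadjusted p under 0.05 for 751 genes with CA3 PNs (4.28%) and for 667 with DGCs (3.8%) of 17531, and an adjusted one for 0 by edgeR or by limma-voom (725 and 648 unadjusted). With the mouse as a block, since the populations share mice, the counts were 625 and 616. Of the 12 leading lower genes of CA1, 6 of the 11 tested in CA3 PNs and 9 of 12 in DGCs also had an LFC below 0. Stmn1 (0.09 and 0.15), Evi5l (0.22 and 0.13) and Rreb1 (0.44 and 0.12) were above 0 in both, and Pdcl (0.16) and Prpf6 (0.10) in CA3 PNs. Hp1bp3 had LFCs of −0.54, −0.44 and −0.41 in CA1, CA3 and DGCs, Fry of −0.98, −0.79 and −0.68 and Zfp933 of −0.85, −0.53 and −0.45, and all 3 were DEGs in each population. Cenpc1 had −0.86, −0.34 and −0.28, and was a DEG in CA1 alone of the 3. The libraries come from the same mice, so these values repeat the mice and are not separate evidence on the diet. The leading higher genes had smaller or opposite LFCs there, except Nnt, which was not tested: Trdmt1 had LFCs of −0.30 and −0.20 in CA3 and DGCs, Tusc2 of −0.13 and 0.21 and Klhl24 of −0.19 and −0.26 (difference between CA1 and DGCs 0.70, SE 0.18, adjusted p = 1).

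Fry levels were similar across the libraries of most mice. Mouse 15-334 had 87.2, 103 and 159 CPM in CA1, CA3 and DGCs, the lowest 2N library in each. Mouse 17-172 had 644, 728 and 663 CPM, and mouse 14-125 had 386, 386 and 341 CPM. The ratio of the CA1 to the CA3 level lay between 0.843 and 1.2 in 11 mice and that of the CA1 to the DGC level between 0.549 and 1.54 in 12 mice. Mouse 17-154, left out of these ranges, stood above both, at 2.02 for CA3, with 835 CPM in its CA1 library and 414 and 369 CPM in CA3 and DGCs. The CA1 library labelled 17-154 thus lay at the ChN level of Fry, and the CA3 library of that label among ChP mice, where the maximum was 442 CPM. Whether both libraries come from 1 mouse was not tested. For Zfp933 the CA1 to CA3 ratio of mouse 17-154 was also above the others, at 1.43 against 0.745 to 1.24, and its CA1 to DGC ratio was within their range, at 0.665 against 0.333 to 0.956. For Hp1bp3 both ratios, 1.12 and 1.07, lay within the ranges of the others (0.772 to 1.73 and 0.619 to 1.32).

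**Figure D5:**
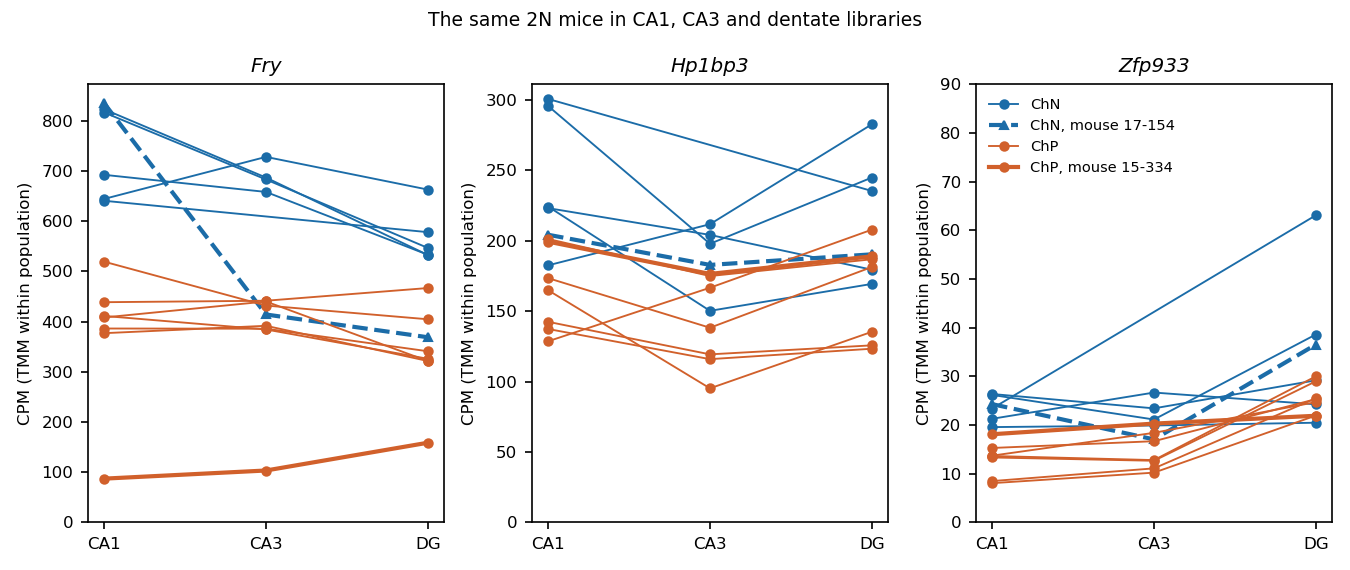
CPM (scaled with TMM within each population) of Fry, Hp1bp3 and Zfp933 in the CA1, CA3 and DG libraries of the same 2N mice, 1 line a mouse, coloured by diet. Fry of mouse 17-154 (dashed) drops from 835 CPM in CA1 to 414 CPM in CA3, and mouse 15-334 (thick) is lowest for Fry in all 3 populations; the CA3 library of mouse 15-145, labelled Ts, is left out.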

How the data were processed

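RNA was measured in 81 libraries, of which the 13 labelled CA1 and 2N entered the main comparison. Per the labels and the paper's methods, the authors trimmed reads where needed (Trimmomatic 0.39), aligned them with STAR to GRCm39, the build the paper gives (the submitters' processing notes name mm10 as well, in a role not stated) and quantified them with RSEM, and deposited expected counts per gene without normalization; the kit is stranded, and reads shared by several genes are split among them by RSEM, which leaves paralogs and small RNA copies uncertain. Of 57010 identifiers, 56310 had a symbol in the GENCODE annotation of GRCm39, from which coordinates come.

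Expected counts were rounded. Genes over 0.1 CPM in at least 10 libraries entered a robust, two-sided quasi-likelihood test (edgeR 4.0.16 under R 4.3.3, TMM scaling) with diet as the only term. The study's DEG threshold, 0.05 on the unadjusted p, was kept, and the Benjamini-Hochberg adjustment ran over every gene in a fit. RNA concentration and read percentages, covariates in the study, were not used here. Each mouse gave 1 library per population, so p-values measure the spread between mice; litters are not given. Log2 CPM of lists use a prior count of 2, and intervals are 95%. At 0.65 to 1.5 counts per CPM, genes of a few CPM rest on a few reads. No 2 libraries of the same diet agreed within counting noise. Differences between genotypes and populations were interaction terms. Populations share mice, and the mouse as a block was an alternative there. The CA3 library of mouse 15-145 is labelled Ts although its other libraries are 2N, and was left out.

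The text names the 12 higher and 12 lower genes with the smallest p that have a proper symbol, and in 40 gene lists the DEGs (up to 4) or the most abundant members; other genes it names were chosen after their values were seen. The part, the lists (the triplicated genes are those the study lists as expressed) and the marker lists were chosen with earlier results of these data known. Alternatives were DESeq2 1.42.0, limma-voom 3.58.1, library totals, no filter or filterByExpr (at least 10 counts), a surrogate variable (sva 3.50.0), all 4 CA1 groups in 1 fit, leaving out each mouse, only mice numbered 15, and CA2 markers or log2 total as a covariate. The scripts were tested on simulated counts.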

Additional observations from a re-analysis of the deposited data

Results flagged for a closer look

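Within a diet group, 8 values in 2N CA1 libraries stood apart from the rest of their group by Dixon's criterion at 95%, among 58 checks of 5 library properties and 24 genes in 2 groups; chance gives about 1 in 20. The CA1 marker list averaged 3.11 log2 CPM in ChN mouse 17-21, where the next library had 7.12, and 4.75 in ChP mouse 15-336, where the next had 6.78. The mean of the triplicated chromosome 16 genes was 5.28 in ChP mouse 16-90, where the next ChP library had 5.14, with scaling over these 13 libraries (the ranges in the report are scaled over all 4 CA1 groups and differ slightly). Fry stood at 6.48 log2 CPM in ChP mouse 15-334, with the next library at 8.57. Pde11a stood at 4.27 in ChN mouse 17-21 (next 3.19), Cenpc1 at 6.12 in ChN mouse 15-147 (next 5.45), Pdcl at 4.36 in ChN mouse 17-172 (next 4.87) and Prlr at 1.04 in ChP mouse 16-90 (next 1.67). The library labelled 17-154, the highest ChN library for the triplicated genes, was not set apart by this criterion.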

How the results depend on the processing

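The number of DEGs depended on the filter and on the CA2-rich libraries. Over the alternatives the 24 leading genes kept their direction and threshold in 588 cases and their direction alone in 41. They were chosen by p on the same libraries that the alternatives refit, so that kept directions are not separate evidence. Nnt, which did not always pass the filter, was tested in 14 of the alternatives. In place of 290 DEGs (151 higher, 139 lower) there were 175 (88, 87) with filterByExpr, 1027 (569, 458) with no filter, 556 (289, 267) with 1 surrogate variable, 530 (274, 256) with all 4 CA1 groups in 1 fit, 677 (388, 289) without mice 17-154 and 17-21, 501 (247, 254) with the CA2 covariate, 662 (303, 359) without the CA2-rich libraries and 458 (239, 219) with the CA2 covariate and without 17-154; in the 5 CA2-rich libraries alone there were 199 (122, 77). Genes with an adjusted p under 0.05 numbered 2 with no filter (Nnt and Gm49378) and 5 without the CA2-rich libraries. Leaving out each mouse gave 225 to 554 DEGs (112 to 303 higher, 113 to 251 lower) and 0 to 1 adjusted calls. Without mouse 17-154, 225 became 458 with the CA2 covariate and 677 without mouse 17-21 as well. For the differences between genotypes, CA1 and CA3, and CA1 and DGCs, filterByExpr gave 294, 396 and 339, no filter 994, 1130 and 1036, leaving out each mouse 461 to 639, 683 to 1066 and 619 to 917 with 0 adjusted calls, and leaving out both mice 1238 for CA3 and 1098 for DGCs. Among named genes that passed the threshold in either fit, signs reversed for Lynx1 (−0.31 with the CA2 covariate and without 17-154), Nptx2 (−0.44 without the CA2-rich libraries), and Rn7s6 (0.80), Fos (1.73) and Snora74a (0.38) in the CA2-rich libraries; the causes were not tested. Genes past the unadjusted threshold in neither fit, such as Pcyt1a and Rps3, also changed sign under some alternatives. So did 1110038B12Rik, which was lower and past the adjusted threshold without the CA2-rich libraries. In the CA2-rich libraries alone its sign was the opposite and it was no DEG. The alternatives that leave out or keep the CA2-rich libraries were chosen after seeing the data.

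No paired analysis was possible because the diets hold different mice and replicate numbers follow accession order; with the mouse as a replicate block, the differences from CA3 and DGCs numbered 625 and 616 genes in place of 751 and 667. Depth limits genes of a few CPM.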

Other observations

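Hp1bp3 and Zfp933 both lie on chromosome 4, and after their values were seen the tested genes between 130 and 150 Mb of that chromosome were counted. Of 174 genes there, 11 were DEGs (6.32%), 8 lower and 3 higher in ChP, beside 2.24% of all genes tested (1.07% lower). The 11 include Hp1bp3 and Zfp933, which prompted the count, and the median LFC of all 174 was −0.06. No test was made.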
